A study of Homo sapiens with 27 samples.

Results

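The 9 genes described here are the cytosolic HSP70 genes HSPA1A, HSPA1B, HSPA1L, HSPA2, HSPA4, HSPA6, HSPA7 and HSPA8, with the HSP40 gene DNAJB1. They were taken by symbol from 2 tables of raw read counts, each of 67130 genes. In each of them 21 entries carry one of these symbols, of which 12 are copies with no read in any library and 9 hold counts, 1 for each gene. All 9 passed the filter on low counts in both tables. The genes were chosen by measured values: several of them stood out in 293T cells with the ARID1A variants V2084D and G2087E against cells with no ARID1A or wild-type ARID1A. Those contrasts are therefore described with no test, and the tests are kept to other contrasts, some of which share libraries with them. Low values in KO and WT libraries helped that choice, which can tilt the other contrasts that use them.

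The study is bulk RNA-seq of 27 libraries in 9 groups of 3. ARID1A is the DNA-binding subunit of a SWI/SNF chromatin remodelling complex, and every group was made in cells whose own ARID1A had been knocked out. In 293T, a human embryonic kidney line, 1 group was the knockout alone (KO), and 5 groups also carried a stable lentiviral, Flag-tagged ARID1A that was wild type (WT) or had the V2084D, G2087E, G2087R or K2025E substitution. In cells labelled Huh7, a hepatocellular carcinoma line, the knockout carried WT ARID1A, V2084D ARID1A, or V2084D together with a knockdown of STUB1 (shSTUB1). There was no Huh7 group with the knockout alone and none with WT ARID1A and the STUB1 knockdown. The labels name no clone, no promoter of the lentivirus and no separate cultures, so a p-value here reflects no more than how these libraries vary, which may be technical.

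HSP70 proteins are ATP-driven chaperones that bind unfolded stretches of other proteins. HSP40 proteins such as DNAJB1 deliver those clients and start ATP hydrolysis, and nucleotide exchange factors, HSPA4 among them, release them again. HSPA8 is the HSP70 that most cells make all the time, and HSPA1A and HSPA1B encode the main stress-inducible HSP70. HSPA6 is an inducible HSP70 that is nearly silent in unstressed cells, and HSPA7 is a pseudogene on the same chromosome. HSPA2 and HSPA1L are best known from the testis. Heat shock factor 1 switches on the inducible genes when it binds repeats of a short unit, GAA or TTC, called heat shock elements. STUB1, also called CHIP, is a ubiquitin ligase that docks on HSP70 and HSP90 and marks their clients, and HSP70 itself, for breakdown.

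Promoter sequences of 8 of the 9 genes matched by symbol to RefSeq windows of GRCh38.p14, and 5 of these windows are printed to show which of the genes described below carry heat shock elements there. Each line gives the 250 bases before the RefSeq start, 5′ to 3′ on the gene's strand, and capitals mark the heat shock elements of 2 or 3 units (GAANNTTC or TTCNNGAA on both strands, which overlap where 3 units follow each other). The windows are chr6:31815293-31815542 (+) for HSPA1A, chr1:161524290-161524539 (+) for HSPA6, chr11:123062137-123062386 (-) for HSPA8, chr19:14518398-14518647 (-) for the second of 3 starts of DNAJB1 and chr5:133051763-133052012 (+) for HSPA4.
HSPA1A: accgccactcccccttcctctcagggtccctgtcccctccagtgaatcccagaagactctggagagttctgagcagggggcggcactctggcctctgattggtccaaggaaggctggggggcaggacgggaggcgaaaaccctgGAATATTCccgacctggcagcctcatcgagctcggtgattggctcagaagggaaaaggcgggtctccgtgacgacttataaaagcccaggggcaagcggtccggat
HSPA6: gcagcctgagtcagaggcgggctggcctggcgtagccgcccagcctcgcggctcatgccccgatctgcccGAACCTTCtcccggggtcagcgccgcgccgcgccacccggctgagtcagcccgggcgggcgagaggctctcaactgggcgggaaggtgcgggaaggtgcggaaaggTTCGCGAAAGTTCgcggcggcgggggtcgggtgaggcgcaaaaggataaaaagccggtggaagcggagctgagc
HSPA8: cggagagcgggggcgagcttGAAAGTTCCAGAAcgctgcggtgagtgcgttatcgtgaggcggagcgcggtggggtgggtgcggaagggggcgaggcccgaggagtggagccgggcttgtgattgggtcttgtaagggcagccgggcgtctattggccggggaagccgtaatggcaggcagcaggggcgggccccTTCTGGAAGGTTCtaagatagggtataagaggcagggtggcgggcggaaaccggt
DNAJB1: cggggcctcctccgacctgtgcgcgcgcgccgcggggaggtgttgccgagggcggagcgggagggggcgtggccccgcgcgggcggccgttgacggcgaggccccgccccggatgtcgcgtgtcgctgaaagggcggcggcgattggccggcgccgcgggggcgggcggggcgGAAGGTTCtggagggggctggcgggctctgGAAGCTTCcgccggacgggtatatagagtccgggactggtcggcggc
HSPA4: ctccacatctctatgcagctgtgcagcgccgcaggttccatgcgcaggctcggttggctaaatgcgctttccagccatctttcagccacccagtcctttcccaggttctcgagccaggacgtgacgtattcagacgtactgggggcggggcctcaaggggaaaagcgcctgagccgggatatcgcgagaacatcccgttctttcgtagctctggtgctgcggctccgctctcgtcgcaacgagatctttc

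The inducible genes HSPA1A, HSPA1B and HSPA6 held such elements in their windows but in different numbers, and HSPA7 had no window. HSPA1A had 1 element, GAATATTC, 98 bases before the start. HSPA6 had 3, of which 2 joined into the 3-unit TTCGCGAAAGTTC that ended 61 bases before the start. The constitutive HSPA8 had 4, joined into 2 elements of 3 units, GAAAGTTCCAGAA and TTCTGGAAGGTTC. DNAJB1 had 2 elements in this window and none in its other windows. HSPA4 and HSPA2 had none in the windows read. Among all 35116 windows of this length, 11.6% held a 2-unit element and 0.441% a 3-unit one. A match of letters is a description of the window and not a site of binding. The HSPA1B window differed from that of HSPA1A at 14 bases with 2 gap bases and 235 identical bases, and held the same element 97 bases before its start. HSPA1L is transcribed the other way from HSPA1A, and its window shares 241 bases with it. The shared bases include GAATATTC, which lies 153 bases before the HSPA1L start.

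In the GENCODE 29 annotation of GRCh38, HSPA1L (ENSG00000204390), HSPA1A (ENSG00000204389) and HSPA1B (ENSG00000204388) lie side by side on chromosome 6. HSPA1A spans positions 31815464 to 31817946, and the starts of HSPA1A and HSPA1B are 12271 bases apart. HSPA6 (ENSG00000173110, chromosome 1, 161524540 to 161526910) and HSPA7 (ENSG00000225217) have starts 81751 bases apart. HSPA8 (ENSG00000109971) is at 123057489 to 123063230 on chromosome 11, with 3 SNORD14 genes inside it. DNAJB1 (ENSG00000132002) is at 14514770 to 14529770 on chromosome 19. HSPA4 (ENSG00000170606) is on chromosome 5 and HSPA2 (ENSG00000126803) on chromosome 14.

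Reads of near-identical copies may have been split between them. Of the 50-base stretches in the transcripts of HSPA1A, 71.3% occur in those of HSPA1B, and of those of HSPA6, 45.5% occur in HSPA7. HSPA1A took between 32.1% and 36.8% of the counts of the pair in all 27 libraries, so the separate values of HSPA1A and HSPA1B are uncertain and their sum is less so. DNAJB1 overlaps TECR on the opposite strand, and whether the counting used strand is not given in the sources used here.

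Total counts were between 33429483 and 55539529 in the 18 libraries of 293T and between 59124374 and 79915177 in the 9 labelled Huh7. Values are counts per 1000000 reads (CPM) after scaling of the library totals by edgeR's TMM factors. ARID1A, the engineered gene, was at 134, 193 and 117 CPM in KO and at 5690, 9285 and 62916 CPM in WT. It was at 52340, 42656 and 114835 CPM in V2084D, at 51818, 43788 and 84609 CPM in G2087E, and at 17585, 13373 and 21658 CPM in K2025E. Of the libraries labelled G2087R, replicates 1 and 2 had 291 and 324 CPM, near KO, and replicate 3 had 68169 CPM. In the libraries labelled Huh7, ARID1A was between 189 and 400 CPM in all 9, far below every 293T library with a WT, V2084D, G2087E or K2025E label. It was lower in Huh7 V2084D, at 216 to 271 CPM, than in Huh7 WT, at 342 to 400 CPM, and fell by 0.55 on the log2 scale (SE 0.183, edgeR adjusted p = 0.0325). STUB1 was at 251, 248 and 296 CPM in Huh7 V2084D and at 70.1, 84.1 and 67.2 CPM with shSTUB1. The libraries labelled Huh7 did not show liver markers: 0 of 12 reached a mean of 1 CPM, with albumin at 0.631 CPM and AFP at 0.0121 CPM, and 8 of 10 markers of 293-like cells did. They are called Huh7 below only as their label. Replicates 2 and 3 of K2025E stood apart from the other 293T libraries on the first principal component, at 104 and 66.6 against -47.8 to 40.2.

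In the 293T libraries the inducible genes HSPA1A, HSPA1B and HSPA6, with DNAJB1, were high in all 6 libraries of V2084D and G2087E and in replicate 3 of G2087R. HSPA6 had the widest range. It was at 0.896, 0.606 and 0.579 CPM in KO and at 1.12, 0.937 and 3.64 CPM in WT. In V2084D it was at 143, 68.4 and 160 CPM, and in G2087E at 199, 92.8 and 196 CPM. The lowest library of these mutant groups was thus above the highest of KO and WT. In K2025E, HSPA6 was at 0.591, 1.39 and 1.25 CPM, within the range of KO and WT. In G2087R it was at 0.663 and 0.355 CPM in replicates 1 and 2 and at 193 CPM in replicate 3.

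HSPA6 and ARID1A did not keep the same order over the libraries. WT replicate 3 had 62916 CPM of ARID1A, more than 4 of the 6 libraries of V2084D and G2087E, and 3.64 CPM of HSPA6, the highest of KO, WT and K2025E but below all 6 of those libraries. The G2087R library with 68169 CPM of ARID1A had 193 CPM of HSPA6. In K2025E, at 13373 to 21658 CPM of ARID1A, the highest HSPA6 value was 1.39 CPM. Because V2084D and G2087E carried more ARID1A transcript than K2025E and than 2 of the 3 WT libraries, the substitution and the amount of ARID1A cannot be told apart in those comparisons.

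**Figure D1:**
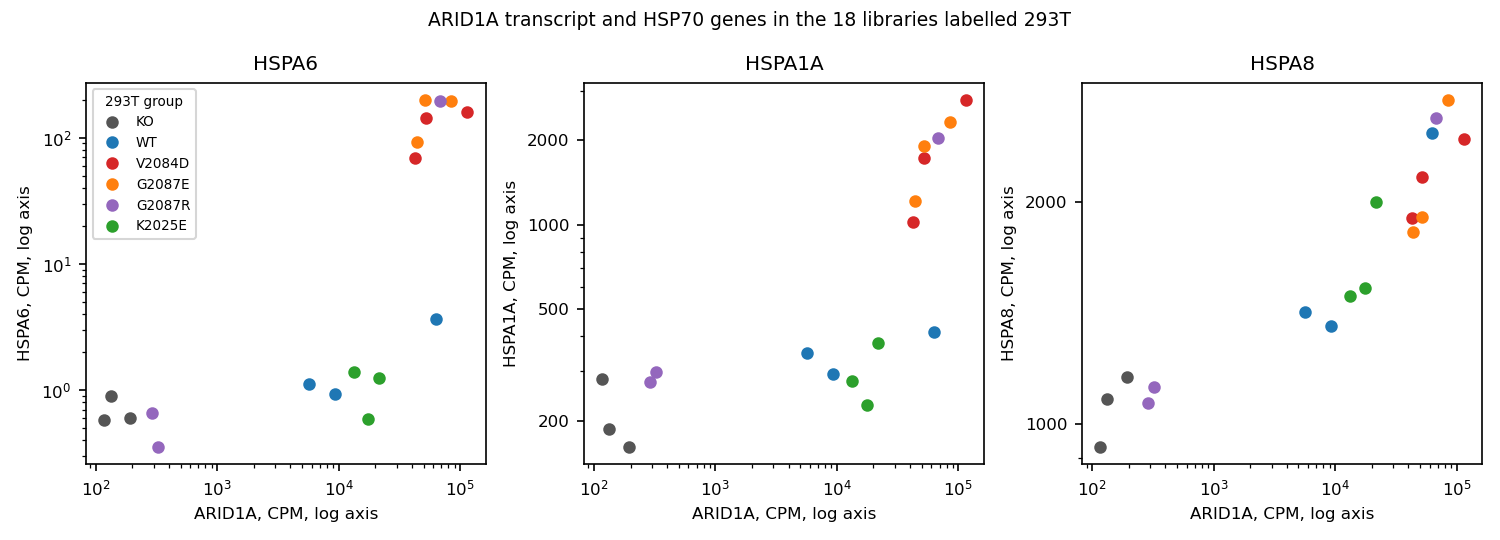
Level of HSPA6, HSPA1A and HSPA8 (y axes, CPM, log axes) against the level of ARID1A (x axes, CPM, log axis) in the 18 libraries labelled 293T; each point is a library and the colours are the 6 groups. The WT library at 62916 CPM of ARID1A sits with 3.64 CPM of HSPA6, apart from the 7 libraries with 68.4 CPM or more.

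HSPA1A, the main inducible HSP70, was at 187, 162 and 281 CPM in KO and at 349, 294 and 416 CPM in WT. It was at 1727, 1021 and 2791 CPM in V2084D and at 1914, 1217 and 2333 CPM in G2087E. K2025E had 228, 277 and 379 CPM, and the libraries labelled G2087R had 276, 299 and 2048 CPM. Every V2084D and G2087E library lay above every KO, WT and K2025E library. HSPA1B followed at 367, 301 and 490 CPM in KO, 622, 507 and 741 CPM in WT and 1894 to 4784 CPM in V2084D and G2087E. The pseudogene HSPA7 was at 0.0551 to 0.321 CPM in KO and WT, on 2 to 14 reads, and at 7.27 to 25.4 CPM in V2084D and G2087E. HSPA7 made up between 9.47% and 11.7% of the reads assigned to HSPA6 and HSPA7 in those 6 libraries.

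DNAJB1, the HSP40 partner, was at 46.5, 51.0 and 44.6 CPM in KO and at 70.5, 65.2 and 148 CPM in WT. It was at 275, 206 and 356 CPM in V2084D and at 288, 207 and 439 CPM in G2087E. K2025E had 71.7, 82.0 and 117 CPM, and the libraries labelled G2087R had 49.6, 51.6 and 355 CPM. As with HSPA1A, all 6 V2084D and G2087E libraries were above the rest except the third library of G2087R. TECR, on the other strand, averaged 81.2 CPM in V2084D, 85.2 CPM in G2087E and 86.0 CPM in KO.

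HSPA8, the constitutive HSP70, was at 1079, 1159 and 931 CPM in KO, 2161, 1900 and 2437 CPM in V2084D and 1911, 1821 and 2753 CPM in G2087E. WT had 1420, 1357 and 2481 CPM, so the WT range overlapped that of both mutant groups. HSPA4, the exchange factor of the HSP110 type, was between 276 and 520 CPM over the 18 libraries, with the lowest value in KO and the highest in V2084D. HSPA2 was between 1.71 and 5.54 CPM and HSPA1L between 0.654 and 2.51 CPM, so both were scarce in every group.

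**Figure D2:**
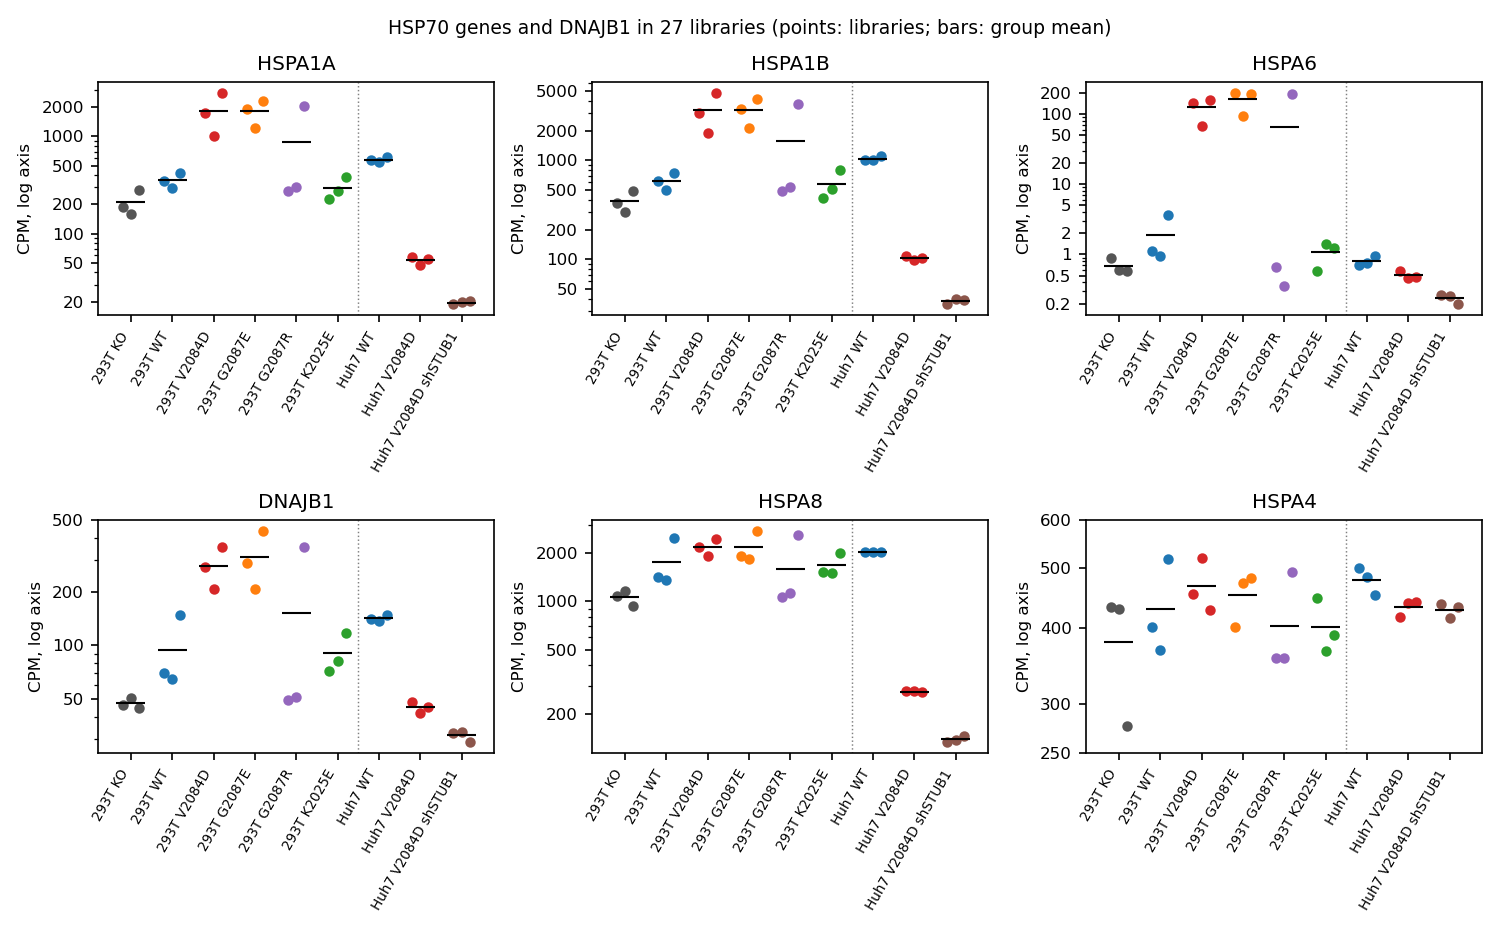
Level of HSPA1A, HSPA1B, HSPA6, DNAJB1, HSPA8 and HSPA4 (y axes, CPM, log axes) in the 27 libraries; points are libraries, bars are the means of 3 libraries, and the dotted line parts 293T from Huh7. HSPA6 in V2084D and G2087E of 293T is between 68.4 and 199 CPM and is at most 0.939 CPM in all libraries labelled Huh7, while HSPA4 stays between 276 and 520 CPM throughout.

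Against KO, the log2 difference of HSPA6 was 7.48 (SE 1.62) in V2084D and 7.87 (SE 1.64) in G2087E. That of HSPA7 was 6.25 and 6.65, that of HSPA1A 3.14 (SE 0.593) and 3.12 (SE 0.592), and that of DNAJB1 2.56 (SE 0.573) and 2.72 (SE 0.576). HSPA8 differed from KO by 1.04 in V2084D and 1.03 in G2087E. In both contrasts 7 of the 9 genes had V2084D or G2087E libraries all above KO, where 7.44% of all genes did so in V2084D and 8.93% in G2087E. Against WT, 5 of the 9 lay all above in each, HSPA1A, HSPA1B, HSPA6, HSPA7 and DNAJB1, against 3.14% of all genes for V2084D and 3.66% for G2087E. These contrasts chose the genes, so nothing is read from the counts. The SEs share 1 spread over the 6 groups, in which G2087R holds libraries of 2 kinds. Without its replicates 1 and 2 the SE of HSPA6 in V2084D against KO was 0.567 and the difference 7.47.

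V2084D and G2087E were next compared directly. Their difference did not choose the genes, but the same libraries did, by being high in both groups. That choice favours a small difference, so likeness of the groups is not read as a result. The libraries of the groups overlapped for all 9, where they did not for 2.18% (higher) and 2.13% (lower) of all genes. HSPA6 differed by 0.39 (SE 1.17), HSPA1A by -0.02 (SE 0.546), DNAJB1 by 0.16 (SE 0.540) and HSPA8 by -0.003 (SE 0.289) on the log2 scale, G2087E minus V2084D. Libraries with the same replicate number deviated together in this comparison. Within these 3 pairs HSPA6 and DNAJB1 were higher in G2087E in 3 of 3 and HSPA2 was lower in 3 of 3. With the replicate number as a block, HSPA6 differed by 0.43 (SE 1.099), DNAJB1 by 0.12 (SE 0.400) and HSPA2 by -0.55 (SE 0.259), and 0 of the 9 were called. By edgeR's quasi-likelihood test with Benjamini-Hochberg adjustment over all genes, 0 of the 9 passed an adjusted p of 0.05, 0 had an unadjusted p under 0.05, and DESeq2 called 0. Among all 23201 genes tested 0% were called, and at the SE of HSPA6 a difference of several fold was not detectable.

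WT against KO asks whether returning ARID1A moved the HSP70 genes. HSPA1A, HSPA1B, HSPA6, HSPA8 and DNAJB1 were each higher in all 3 WT libraries than in all 3 KO libraries, 5 of the 9 genes, where 8.93% of all genes were. KO and WT were the low side of the contrasts that chose the genes. That can tilt this count, so it is not read as a result. HSPA8, the constitutive gene, differed by 0.73 (SE 0.291) and DNAJB1 by 0.99 (SE 0.547). HSPA1A differed by 0.75 (SE 0.550) and HSPA6 by 1.44 (SE 1.44). Without WT replicate 3 the difference was 0.38 (SE 0.292, edgeR adjusted p = 0.687) for HSPA8, 0.50 (SE 0.580) for DNAJB1 and 0.55 (SE 1.64) for HSPA6, and 0 of the 9 had an unadjusted p under 0.05. With edgeR 0 of the 9 were called, 1 had an unadjusted p under 0.05 (HSPA8, adjusted p = 0.371), and DESeq2 called 0. Over all genes edgeR called 0%, and none of these differences passed the test. These SEs also share the spread of all 6 groups, with the mixed G2087R among them. With WT and KO fitted alone, 0 of the 9 were called by edgeR, but 5 had an unadjusted p under 0.05. They were HSPA1A, HSPA1B, HSPA6, HSPA8 and DNAJB1. The lack of calls in the main fit is therefore not read as a lack of difference. WT replicate 3, the library with the most ARID1A of its group, was also the highest of the 3 for all 9 genes. HSPA4, for example, was at 519 CPM there against 402 and 367 CPM. The share of all genes highest in that library was not computed.

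K2025E was then compared with KO. HSPA1A differed by 0.49 (SE 0.548) and HSPA6 by 0.65 (SE 1.49), with overlapping libraries. HSPA8 was at 1527, 1493 and 2002 CPM in K2025E, all above KO, a difference of 0.66 (SE 0.290, adjusted p = 0.139 by edgeR). DNAJB1 differed by 0.93 (SE 0.546, adjusted p = 0.282 by edgeR) and also lay all above KO, as did HSPA1L, which makes 3 of the 9 against 16% of all genes. Low KO values helped choose the genes, so this count is not read as a result. In K2025E against KO, 7.17% of all genes were called higher and 5.72% lower by edgeR, and 0 of the 9 were, with 1 at an unadjusted p under 0.05 and 0 called by DESeq2. With K2025E and KO fitted alone, edgeR called 0 of the 9, but 3 had an unadjusted p under 0.05. The lack of calls is therefore not read as a lack of difference. The shares of all genes rest on single libraries: the 2989 genes called became 1 without K2025E replicate 2, 618 without replicate 3 and 5270 without replicate 1, and 1078 and 951 without KO replicates 1 and 2. Against WT, K2025E overlapped for 8 of the 9 genes. HSPA2 alone lay below, with a log2 difference of -0.51 (SE 0.284), where 3.77% of all genes did. For K2025E against WT, edgeR and DESeq2 called 0 of the 9 and 0 had an unadjusted p under 0.05, with 0.00431% of all genes called by edgeR, which is 1 gene and became 1048 without K2025E replicate 1.

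In the libraries labelled Huh7, HSPA1A, HSPA1B and DNAJB1 were lower, not higher, with V2084D than with WT ARID1A. HSPA6 and HSPA7 did not pass the test in that comparison. HSPA1A was at 574, 541 and 611 CPM in WT and at 58.2, 48.0 and 55.4 CPM in V2084D. With shSTUB1 added it was at 18.8, 19.95 and 20.2 CPM. The 3 groups did not overlap and the spread within each was small. HSPA1A fell by 3.42 on the log2 scale from WT to V2084D (SE 0.0875, edgeR adjusted p = 5.2e-09), which is 10.7-fold. From V2084D to V2084D with shSTUB1 it fell by 1.45 more (SE 0.0820, edgeR adjusted p = 8.8e-06), or 2.74-fold. HSPA1B was at 1015, 997 and 1108 CPM, then 109, 98.1 and 104 CPM, then 34.99, 39.7 and 38.8 CPM, and fell by 3.33 (SE 0.0737) and then fell by 1.45 (SE 0.0690). In bulk RNA, a change in the number of cells that make a transcript and a change in transcript per cell cannot be told apart.

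HSPA8, the chaperone that most cells make constitutively, fell too. It was at 2022, 2017 and 2014 CPM in WT, at 278, 276 and 271 CPM in V2084D and at 134, 138 and 145 CPM with shSTUB1. It fell by 2.88 on the log2 scale from WT to V2084D (SE 0.0459, edgeR adjusted p = 1.9e-10), or 7.34-fold. It fell by 0.99 from V2084D to shSTUB1 (SE 0.0433, edgeR adjusted p = 5.9e-06). HSPA8 in Huh7 V2084D was thus below the lowest value of any 293T library, 931 CPM.

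DNAJB1 moved the same way by less. It was at 140, 138 and 147 CPM in WT, 48.1, 42.0 and 45.5 CPM in V2084D and 32.6, 32.9 and 28.9 CPM with shSTUB1. It fell by 1.65 (SE 0.0798, edgeR adjusted p = 3.0e-07) and then by 0.52 (SE 0.0784, edgeR adjusted p = 0.0013). TECR on its opposite strand averaged 145, 91.3 and 79.8 CPM in the same order, and its part in the reads given to DNAJB1 was not tested.

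HSPA2 was at 8.45, 7.18 and 10.3 CPM in WT and at 2.82, 3.33 and 2.89 CPM in V2084D, a fall of 1.52 (SE 0.196, edgeR adjusted p = 0.00012). With shSTUB1 it was at 2.63, 2.26 and 3.37 CPM, a log2 difference of -0.13 from V2084D (SE 0.194) that did not pass. HSPA6 was scarce, at 0.707, 0.759 and 0.939 CPM in WT, 0.587, 0.465 and 0.473 CPM in V2084D and 0.267, 0.258 and 0.194 CPM with shSTUB1, on 14 to 65 reads a library. Its difference passed the test between shSTUB1 and WT, a fall of 1.74 (SE 0.367, edgeR adjusted p = 0.0029), and in neither step alone (edgeR adjusted p = 0.166 and 0.0601). HSPA1L had 11 to 74 reads a library and HSPA7 3 to 11, and neither passed in any of the 3 comparisons.

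HSPA4 was the abundant gene that hardly moved. It was at 501, 485 and 452 CPM in WT, at 416, 439 and 441 CPM in V2084D and at 437, 415 and 433 CPM with shSTUB1. The log2 difference of V2084D from WT was -0.15 (SE 0.0543, edgeR adjusted p = 0.0468). That call was lost with no filter on low counts, with the replicate block, with the pair of groups fitted alone and without any 1 of 5 libraries, WT replicates 1 and 2 and all 3 of V2084D, where the adjusted p was between 0.0590 and 0.199. From V2084D to shSTUB1, HSPA4 differed by -0.01 (SE 0.0543). Against WT it differed by -0.16 with shSTUB1 (SE 0.0543, edgeR adjusted p = 0.0317), a call lost in the same 3 settings and without WT replicates 1 or 2 or any library of shSTUB1, at an adjusted p between 0.0588 and 0.147.

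Counted together, 6 of the 9 genes were called lower and 0 higher in V2084D against WT, where 20% of all 22510 genes were called lower and 22% higher. With shSTUB1 against V2084D, 4 of the 9 were lower, HSPA1A, HSPA1B, HSPA8 and DNAJB1, and 0 higher, against 10.8% of all genes in each direction. With shSTUB1 against WT, 7 were lower and 0 higher, against 21.7% and 23.5% of all genes. Ranked by size of fall among all 22510 genes, HSPA1A was at place 101, HSPA1B at 106 and HSPA8 at 153 in V2084D against WT. In shSTUB1 against V2084D the places were 562, 566 and 1269. The comparisons share libraries, so their values are set side by side and not counted as separate evidence.

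**Figure D3:**
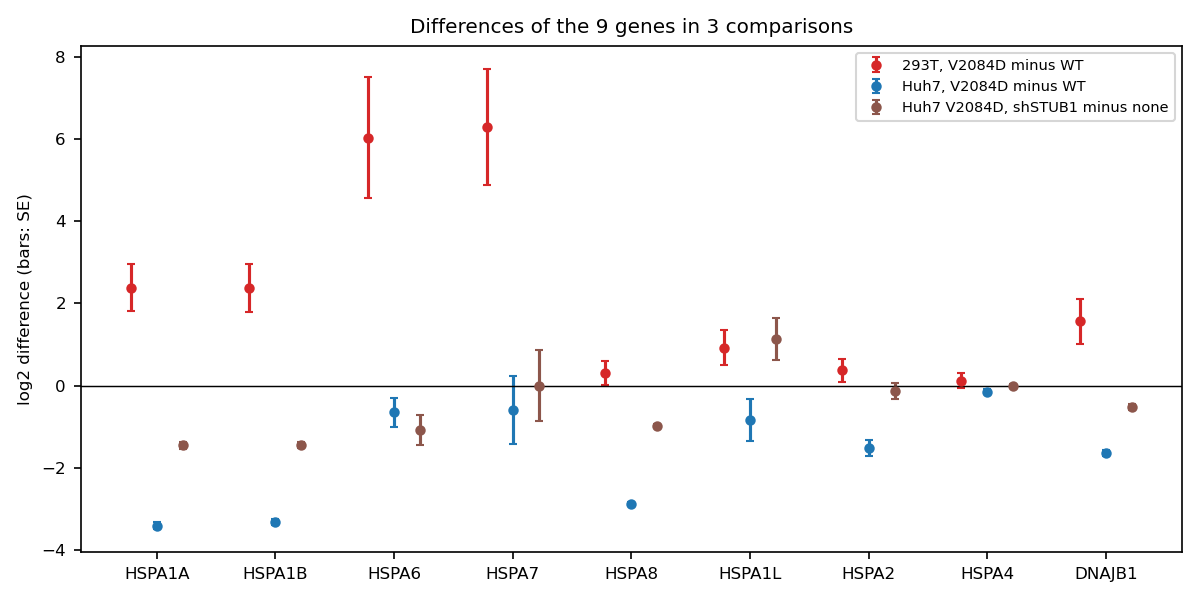
Log2 difference (y axis) of the 9 genes in V2084D minus WT of 293T, in V2084D minus WT of Huh7 and in shSTUB1 minus no knockdown of Huh7 V2084D; points are fitted values from 3 libraries a group and bars are SEs. HSPA1A stands at 2.39 in 293T and at -3.42 in Huh7, and HSPA4 lies between -0.15 and 0.12 in all 3.

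The make-up of the HSP70 transcripts changed with these levels. Levels per kilobase of exon (CPM per kb) were summed over the 8 HSP70 genes. The length is that of all annotated exons joined, 4849 bases for HSPA8, 5153 for HSPA4 and 2483 for HSPA1A. It can exceed the transcript that is made, so the shares and the order of the genes depend on it. In Huh7 the sum was 1150, 1125 and 1191 CPM per kb in WT, 205, 201 and 206 in V2084D, and 135, 134 and 139 with shSTUB1. HSPA1A and HSPA1B together were 55.7% of it in WT, 30.7% in V2084D and 16.9% with shSTUB1. HSPA4 was 8.06%, 41.1% and 61.3%. In WT the order of the levels per kilobase was HSPA8 at 416 CPM per kb (SD 0.847), HSPA1B at 413 (SD 23.6), HSPA1A at 232 (SD 14.0), HSPA4 at 93.0 (SD 4.86) and DNAJB1 at 38.6 (SD 1.35), and of these neighbours only HSPA8 and HSPA1B lay within each other's spread. In V2084D the order was HSPA4 at 83.8 CPM per kb (SD 2.72), HSPA8 at 56.7 (SD 0.662), HSPA1B at 41.1 (SD 2.10), HSPA1A at 21.7 (SD 2.13) and DNAJB1 at 12.3 (SD 0.840). With shSTUB1, DNAJB1 at 8.56 (SD 0.604) stood above HSPA1A at 7.91 (SD 0.306), within their spread. Reads shared by HSPA1A and HSPA1B leave the separate places of these genes uncertain, and the SDs do not measure that.

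In 293T the make-up went the other way. HSPA1A and HSPA1B were 44.5% of the summed level in KO, 47.1% in WT and 44.5% in K2025E, against 75.5% in V2084D and 76.0% in G2087E. HSPA8 was 41.3% in KO and 17.4% in G2087E. The sum was 508 to 554 CPM per kb in KO and 1689 to 3688 in V2084D. HSPA6 and HSPA7, despite their large fold differences, were at most 3.65% of the sum in any library.

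**Figure D4:**
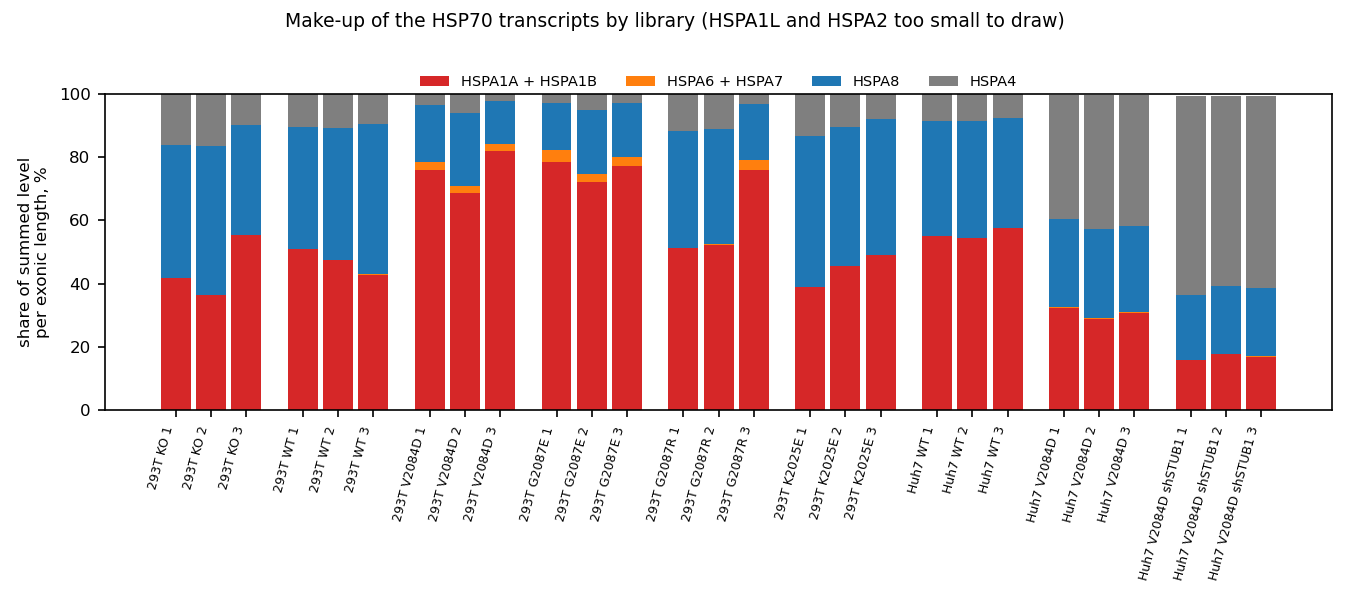
Share of the summed level per exonic length of the 8 HSP70 genes (y axis, %) taken by HSPA1A with HSPA1B, HSPA6 with HSPA7, HSPA8 and HSPA4 in each of the 27 libraries (x axis, with the replicate number). HSPA1A with HSPA1B take 68.8% to 81.9% in V2084D of 293T and 15.9% to 17.8% in Huh7 V2084D with shSTUB1.

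The genes that share the HSP70 system were read from lists of textbook members, chosen with earlier results of these data known. The lists share genes, such as HSPH1 and STIP1, so their counts are not separate. Of 25 other genes of the heat shock response, 24 were tested in Huh7, and 19 were lower and 2 higher in V2084D than in WT, where 20% of all genes were called lower and 22% higher. The median log2 difference was -0.74 against 0.03 over all genes. HSP90AA1, the inducible cytosolic HSP90, fell by 1.80 (SE 0.0485). HSPH1, an HSP110 exchange factor, fell by 2.16 (SE 0.0640). DNAJA1, a farnesylated HSP40, fell by 1.96 (SE 0.0713), and STIP1, which bridges HSP70 and HSP90, fell by 1.11 (SE 0.0557). The 2 that rose were HSPB8, a small heat shock protein, by 0.84 and CLU, an extracellular chaperone, by 0.66.

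With shSTUB1 against V2084D, 7 of those 24 were lower and 0 higher, against 10.8% of all genes in each direction, with a median of -0.11 against -0.003 over all genes. Among those with the smallest p were IER5, a cofactor of heat shock factor 1, which fell by 0.66 (SE 0.0999), CLU by 0.50 (SE 0.0800) and STIP1 by 0.31 (SE 0.0551). HSP90AA1, HSPH1 and DNAJA1, which had the smallest p in V2084D against WT, differed by 0.02 (SE 0.0470), 0.05 (SE 0.0615) and -0.02 (SE 0.0689) in this comparison. For HSPA1A the same difference was -1.45 (SE 0.0820) and for HSPA8 -0.99 (SE 0.0433).

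**Figure D5:**
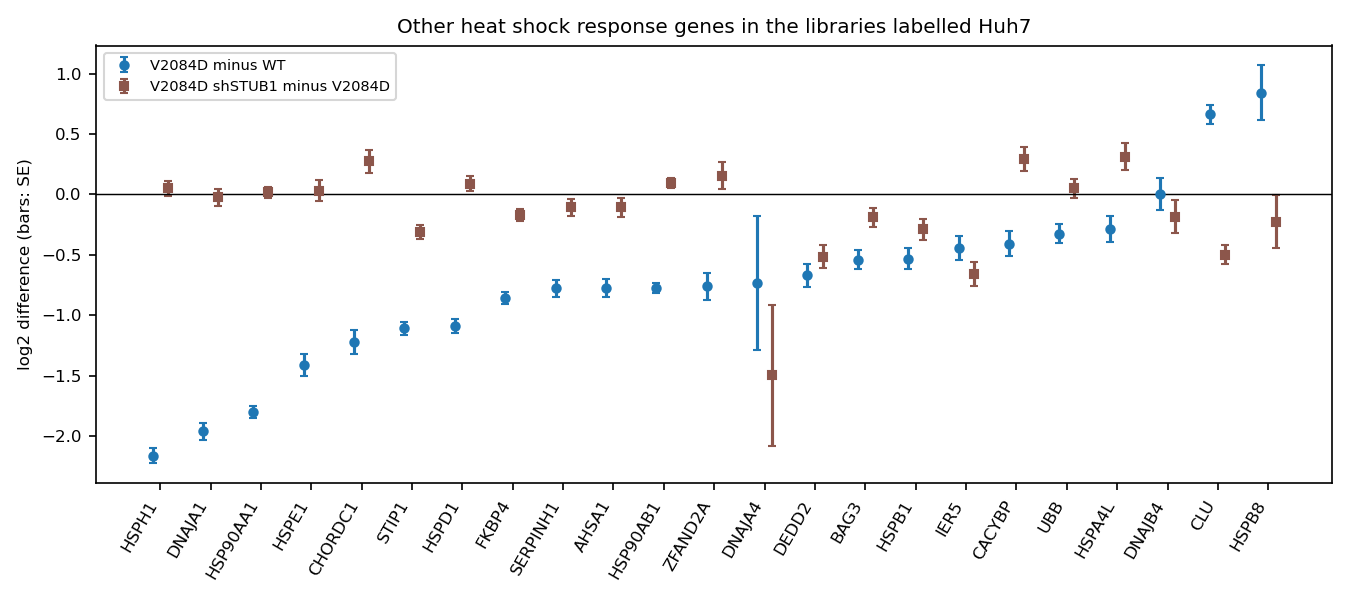
Log2 difference (y axis) of other heat shock response genes tested in the libraries labelled Huh7, for V2084D minus WT (circles) and shSTUB1 minus no knockdown in V2084D (squares); points are fitted values from 3 libraries a group and bars are SEs. HSPH1 stands at -2.16 and 0.05, and STIP1 at -1.11 and -0.31.

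Of the 10 adaptors and nucleotide exchange factors of HSP70, 4 were lower and 0 higher in V2084D than in WT of Huh7, against 20% and 22% of all genes, with a median of -0.09 against 0.03 over all genes. STIP1 is in this list too. HSPBP1, an exchange factor that also restrains STUB1, fell by 1.43 (SE 0.111), BAG3, which links HSP70 to autophagy, by 0.54 (SE 0.0789) and BAG1 by 0.59 (SE 0.0929). STUB1 itself differed by 0.21 (SE 0.0999, edgeR adjusted p = 0.115). Of 8 other cytosolic HSP40 genes, 4 were lower and 2 higher, DNAJB5 by 0.84 (SE 0.136) and DNAJB2 by 0.38 (SE 0.125), with a median of -0.29. The same shares of all genes, 20% lower and 22% higher, stand beside this count, and the 2 higher are near that background. Among the heat shock factors and their binding protein, 4 were tested, with 3 lower and 1 higher: HSF1 fell by 0.29 (SE 0.0586), HSBP1 by 0.28 (SE 0.0672) and HSF4 by 0.71 (SE 0.249), and HSF2 rose by 0.75 (SE 0.113). With shSTUB1, 0 of these 4 were called by edgeR against V2084D.

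Apart from the 9 genes themselves, the genes most like HSPA6 over the 18 libraries of 293T, by Pearson correlation of log2 CPM, were CLCN4 (0.931), HSP90AA2P (0.890), HSPB8 (0.889), NTRK3 (0.885) and BCL6B (0.879), a description over libraries that share 6 groups. Among the genes described here the correlation with HSPA6 was 0.984 for HSPA7, 0.972 for HSPA1B, 0.971 for HSPA1A, 0.959 for DNAJB1, 0.797 for HSPA8 and 0.582 for HSPA4. CLCN4, a chloride transporter of endosomes, averaged 1.36 CPM in KO, 3.07 in V2084D and 3.21 in G2087E, and NTRK3 had at most 15 reads in any 293T library. Over the 9 libraries labelled Huh7 the genes most like HSPA1A included DBN1, LPCAT1, PFKP and MAP3K11, with correlations from 0.997 to 0.999, where 3 groups set most of the variation.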

How the data were processed

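The authors deposited 2 tables of raw read counts per gene (Ensembl IDs and symbols), for the 18 libraries of 293T and the 9 labelled Huh7. RNA was total RNA and libraries were made with a NEBNext Ultra II kit, per the labels' protocols. The genome build GRCh38 and edgeR are named in the submitters' processing notes; aligner, counter, annotation and strand setting are not given in the sources used here. Libraries were grouped by title. The 9 genes and the lists of related genes were chosen with earlier results of these data known.

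Counts were fitted per table with edgeR 4.0.16 in R 4.3.3 (filterByExpr with a minimum count of 10 and a total of 15, TMM, quasi-likelihood F test, all groups of a table in 1 fit), which kept 23201 genes in 293T and 22510 in Huh7. Calls are at a Benjamini-Hochberg adjusted p under 0.05 over all genes kept, and SEs are the log2 difference over the root of F. The biological coefficient of variation was 30.9% in 293T and 24.8% in Huh7. Replicate libraries differed by a chi-square of 11.7 to 345 per degree of freedom, so no pair matched within counting noise. The code was tested on simulated counts. Named genes are all 9, ARID1A and STUB1, up to 4 of each list with the smallest p in the comparison described, and the 5 genes most correlated with HSPA6 in 293T and with HSPA1A in Huh7; CLU and HSPB8 in V2084D against WT, HSPH1, HSP90AA1 and DNAJA1 in the knockdown comparison, and TECR were added after their values were seen. Some genes that the rule names are not reported here. Alternatives were DESeq2 1.42.0, DESeq2-type (RLE) scaling, no filter, the pair of groups alone, the replicate number as a block, and leaving out each library. Leaving out G2087R replicates 1 and 2 or K2025E replicates 2 and 3 was added after seeing the data.

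Labels give the same replicate numbers to all groups but do not say what they share. Same-numbered libraries of G2087E and V2084D deviated together (correlations 0.122, 0.122 and 0.149), as did those of G2087R and WT in 293T (0.132, 0.178 and 0.315); no other comparison had all 3 over 0.1.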

Additional observations from a re-analysis of the deposited data

Results flagged for a closer look

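The log2 difference between V2084D and WT had opposite signs in 293T and Huh7 for HSPA1A, HSPA1B, HSPA6 and DNAJB1. Their libraries did not overlap between the groups in either. The 293T contrast is among those that chose the genes, and the share of all genes with this pattern was not computed. HSPA1A stood at 2.39 in 293T and at -3.42 in Huh7 on the log2 scale, and HSPA1B at 2.37 and -3.33. HSPA6 stood at 6.04 in 293T and at -0.66 in Huh7, on 29 to 65 reads in each of those Huh7 libraries. That Huh7 difference did not pass the test (edgeR adjusted p = 0.166). DNAJB1 stood at 1.56 and -1.65. In each case all 3 V2084D libraries lay above all 3 WT libraries in 293T and below them in Huh7. The difference between the libraries labelled 293T and Huh7 was not tested, and the tables were normalized separately. The libraries labelled Huh7 did not show liver markers, so their values do not establish a second cell line. ARID1A itself was at 42656 to 114835 CPM in V2084D of 293T and at 216 to 271 CPM in V2084D of Huh7, where WT had 342 to 400 CPM.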

How the results depend on the processing

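The number of the 9 genes called in each of the 7 tested comparisons stayed within 1.5 times its value in all 83 alternatives: 0 in the 4 comparisons of 293T, 5 to 6 in Huh7 V2084D against WT, 4 in shSTUB1 against V2084D and 6 to 7 in shSTUB1 against WT. HSPA4 was the gene whose call was lost. In Huh7 the replicate block ended only the HSPA4 calls (6 became 5, and 7 became 6) and changed no other call of the 9 genes. Under every setting tried, HSPA1A, HSPA1B, HSPA8 and DNAJB1 kept their calls in Huh7. The differences that changed sign were of genes with no call. With the replicate block HSPA7 in WT against KO became 0.051, DNAJB1 in K2025E against WT 0.027, and in G2087E against V2084D HSPA1A became 0.058 and HSPA1B 0.044. HSPA7 in WT against KO became 0.031 with DESeq2, and HSPA8 in G2087E against V2084D 0.0035 with no filter. Without K2025E replicates 2 and 3, HSPA6 in K2025E against KO became -0.23 and HSPA4 in K2025E against WT 0.059. Leaving out 1 library at a time gave these ranges. In WT against KO they were -0.69 to 0.31 for HSPA7, -0.43 to 0.36 for HSPA1L and -0.019 to 0.28 for HSPA4. In K2025E against KO they were -0.35 to 0.036 for HSPA2 and -0.12 to 0.18 for HSPA4. In K2025E against WT they were -0.41 to 0.075 for HSPA1B, -1.12 to 0.078 for HSPA6, -0.22 to 0.26 for HSPA8, -0.20 to 0.055 for HSPA4 and -0.29 to 0.41 for DNAJB1. In G2087E against V2084D they were -0.31 to 0.41 for HSPA1A, -0.29 to 0.38 for HSPA1B, -0.22 to 0.11 for HSPA8, -0.11 to 0.035 for HSPA4 and -0.17 to 0.38 for DNAJB1. In shSTUB1 against V2084D they were -0.45 to 0.36 for HSPA7 and -0.040 to 0.010 for HSPA4. The cause was not tested. The number of all genes called moved more. In K2025E against KO, 2989 genes became 1 without K2025E replicate 2 or without its replicates 2 and 3, 618 without its replicate 3, 5270 without its replicate 1, 1078 and 951 without KO replicates 1 and 2, 4526 with DESeq2 and 436 with the pair of groups alone. In K2025E against WT, 1 became 1048 without K2025E replicate 1, 0 without its replicate 2, 3 without WT replicate 3, 21 with DESeq2, 5 with the pair alone and 2 without G2087R replicates 1 and 2. In WT against KO, 0 became 68 with DESeq2, 5 with the pair alone and 2 without G2087R replicates 1 and 2, and in G2087E against V2084D 0 became 7 and 3 with the first 2 of these settings. In shSTUB1 against V2084D of Huh7, 4850 became 2887 without V2084D replicate 1 and 3140 without shSTUB1 replicate 1. Of the described differences, that of HSPA6 in G2087R against KO, 6.54 with all libraries, was -0.46 without replicate 3. In 293T the spread between libraries limits what can be called, and HSPA7, HSPA1L and Huh7 HSPA6 rest on few reads.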

Other observations

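The HSP70 of the endoplasmic reticulum, HSPA5, was lower in Huh7 V2084D than in WT by 1.09 on the log2 scale (SE 0.0563) and lower again by 0.40 (SE 0.0558) with shSTUB1, both called by edgeR. Of 14 endoplasmic reticulum stress genes, 8 were lower and 4 higher in V2084D against WT, where 20% of all genes were called lower and 22% higher, with a median of -0.72 against 0.03 over all genes. PDIA4, a disulfide isomerase, fell by 1.32 (SE 0.0507), whereas DDIT3, a stress-induced transcription factor, rose by 1.54 (SE 0.102) and XBP1, a transcription factor of the unfolded protein response, by 1.14 (SE 0.0774). Of 9 other members of the HSP70 superfamily, which include HSPA5 and HSPH1, 4 were lower and 1 higher, HSPA13, by 0.90 (SE 0.103), against the same shares of all genes. HSPA9, the mitochondrial HSP70, fell by 0.17 (SE 0.0466), near the size of the HSPA4 difference.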
